A study of Homo sapiens with 6 samples.

Results

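The genes that make, carry, attach and remove sialic acid were examined in NCI-H1975, an established line of human non-small cell lung cancer. The group holds 10 genes named by symbol, GNE, NANS, NANP, CMAS, SLC35A1, ST6GAL1, ST3GAL4, ST3GAL5, ST3GAL6 and NEU3, and each was found once among the 60960 features of the deposited table through its Ensembl identifier. Bulk mRNA sequencing gave 6 libraries, 3 labelled siNC (a control small interfering RNA) and 3 labelled siGFPT2 (a small interfering RNA against GFPT2). The design asks which genes differ in expression between these labels. All 6 come from the same cell line. The dose, the time after transfection and the sequence of the RNA are not stated in the labels. The extraction protocol also mentions almonertinib, EGF and a knockdown of EGFR, none of which is a treatment label here. Nothing says whether replicates were separate cultures, so the p-values speak of the variation among these libraries, part or all of which may be technical.

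Sialic acids are negatively charged sugars that end many glycans on the cell surface, where they shield the galactose beneath them and serve as ligands for lectins. Cells build them from UDP-GlcNAc, the end product of the hexosamine pathway, whose opening step GFPT2 and its paralog GFPT1 catalyse. The sugar is made in the cytosol, activated with CTP in the nucleus, carried into the Golgi and placed on galactose or on another sugar by sialyltransferases, which differ in acceptor and in the bond they form. Sialidases remove it again, and sialylated glycans are a known feature of the surface of lung cancer cells.

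Levels are in FPKM, which scales the fragments of a gene by its length and by the depth of the library, so values of different genes may be set side by side. Depth lay between 21899321 and 27234880 counted fragments per library, recovered from the spacing of low FPKM values. The targeted gene, GFPT2, was 9.24 ± 0.925 FPKM in the siNC libraries and 8.41 ± 0.734 in the siGFPT2 libraries (SD, n = 3 each), with overlapping groups and a log2 fold change of -0.13 (95% interval -0.43 to 0.17; adjusted p = 0.9999, limma). The level of the target thus overlapped between the labels, and siGFPT2 stands throughout for the libraries that carry this label. All 6 epithelial markers were abundant, with summed levels of 1430 to 2090 FPKM in the siNC libraries and 1480 to 1880 in the siGFPT2 libraries. The 3 endothelial markers summed to 0.232 to 0.276 FPKM in siNC and 0.256 to 0.405 in siGFPT2. The 4 fibroblast markers summed to 8.46 to 10.4 and 8.85 to 11.9 FPKM, mostly the collagen gene COL1A1 at 6.61 ± 0.92 (SD, n = 6), while PTPRC, the pan-leukocyte marker, was at most at 0.0134.

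siNC replicate 3 and siGFPT2 replicate 2 stood apart from the other 4 libraries. A chi-square of their fragments per degree of freedom, which would be about 1 for sampling noise alone, was 8.42 between these libraries, 38.4 to 91.2 between either of them and the other 4, and 2.51 to 15.2 among the other 4. Each library was also set against the other 2 of its group, so the slopes with exon length within a group balance out and are not independent. On this measure siNC replicate 3 and siGFPT2 replicate 2 had lower values for long genes. Their slopes were -0.13 and -0.09 on the log2 scale per doubling of exon length, against 0.04 to 0.07 in the other 4. The fold changes and ratios of the members between the labels are therefore given with and without them; those of the context genes use all 6 libraries.

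The 4 enzymes of synthesis and activation were all expressed in every library. GNE (chromosome 9, 36214441 to 36277056, minus strand; protein coding, as are all 10 genes, in GENCODE 29 on GRCh38) encodes the bifunctional epimerase and kinase that commits UDP-GlcNAc to the pathway and is inhibited by its end product. It stood at 6.93, 6.56 and 4.53 FPKM in siNC replicates 1, 2 and 3 and at 7.29, 4.83 and 7.32 in siGFPT2 replicates 1, 2 and 3. The groups overlapped, and the 2 lowest values came from the libraries that stand apart. NANS (chromosome 9, 98056739 to 98083075, plus strand), the synthase that joins the phosphorylated sugar to phosphoenolpyruvate, was the most abundant member at 11.6, 11.1 and 16.7 FPKM in the siNC libraries and 11.8, 14.8 and 12.4 in the siGFPT2 libraries. Its 2 highest values came from the same libraries that were lowest for GNE.

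NANP (chromosome 20, 25612935 to 25624175, minus strand), the phosphatase that releases free sialic acid, was at 3.78, 4.39 and 3.35 FPKM in the siNC libraries and 4.71, 3.77 and 4.61 in the siGFPT2 libraries. CMAS (chromosome 12, 22046174 to 22065674, plus strand), which couples sialic acid to CMP, was at 8.93, 9.92 and 12.2 in the siNC libraries and 10.7, 13.2 and 11.5 in the siGFPT2 libraries. For both genes the groups overlapped, and the libraries that stand apart were at the low end for NANP and at the high end for CMAS. SLC35A1 (chromosome 6, 87470623 to 87512336, plus strand), the Golgi carrier of CMP-sialic acid, was at 1.79, 2.66 and 4.32 FPKM in the siNC libraries and 2.60, 3.50 and 2.71 in the siGFPT2 libraries. Its lowest and highest values both fell in the siNC libraries and differed 2.41-fold, against 1.19- to 1.82-fold in the other 7 members above a mean of 1 FPKM. Only 79 to 211 fragments per library lay behind SLC35A1, and their counting error of 8.95% was below the coefficient of variation of 29.7% over the 6 libraries.

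Among the transferases of this group, ST3GAL4 had the highest mean level, and it was the steadiest member. ST3GAL4 (chromosome 11, 126355640 to 126440344, plus strand), which caps galactose on glycoproteins and helps to build sialyl Lewis x, was at 3.99, 3.91 and 4.63 FPKM in the siNC libraries and 4.16, 4.64 and 4.12 in the siGFPT2 libraries. Its coefficient of variation over the 6 libraries was 7.49%, the smallest of the 10. ST6GAL1 (chromosome 3, 186930485 to 187078553, plus strand), which caps galactose on N-glycans through a different carbon, was at 1.34, 1.35 and 0.953 FPKM in the siNC libraries and 1.30, 1.12 and 1.5 in the siGFPT2 libraries. ST6GAL1 was below ST3GAL4 in every library.

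ST3GAL5 and ST3GAL6 had means below 1 FPKM and were not in the main test. ST3GAL5 (chromosome 2, 85837120 to 85905199, minus strand), the GM3 synthase that starts most gangliosides, was at 0.275, 0.283 and 0.276 FPKM in the siNC libraries and 0.329, 0.327 and 0.334 in the siGFPT2 libraries, from 99, 101 and 110 and from 122, 145 and 121 fragments. Its groups did not overlap. ST3GAL6 (chromosome 3, 98732236 to 98821201, plus strand), a glycoprotein transferase like ST3GAL4, was at 0.108, 0.167 and 0.117 in the siNC libraries and 0.14, 0.0993 and 0.244 in the siGFPT2 libraries, from 15 to 34 fragments, and its groups overlapped. NEU3 (chromosome 11, 74988134 to 75018893, plus strand), the plasma membrane sialidase that trims gangliosides, was at 2.80, 3.29 and 1.81 FPKM in the siNC libraries and 2.77, 1.98 and 2.93 in the siGFPT2 libraries, again with the libraries that stand apart lowest.

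**Figure D1:**
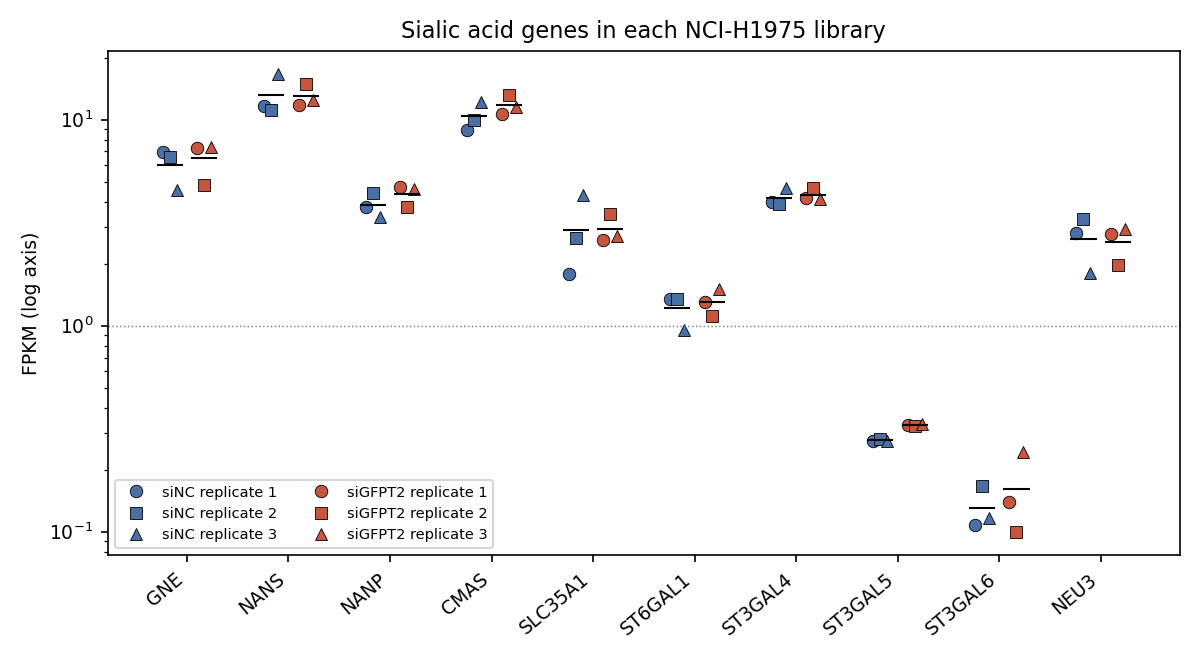
FPKM of the 10 members in each library on a log axis; points are libraries, short lines are group means, and the dotted line marks 1 FPKM. NANS and CMAS lie highest, and ST3GAL5 and ST3GAL6 lie below 1 FPKM; siNC replicate 3 (blue triangles) and siGFPT2 replicate 2 (red squares) are high for NANS, CMAS and SLC35A1 and low for GNE and NEU3.

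Over the 6 libraries the order of mean levels was NANS (13.1 FPKM), CMAS (11.1), GNE (6.24), ST3GAL4 (4.24), NANP (4.10), SLC35A1 (2.93), NEU3 (2.60), ST6GAL1 (1.26), ST3GAL5 (0.304) and ST3GAL6 (0.146). The ranges of neighbours did not overlap between CMAS and GNE, NEU3 and ST6GAL1, ST6GAL1 and ST3GAL5, or ST3GAL5 and ST3GAL6. NANS exceeded CMAS in 6 of 6 libraries although their ranges overlapped. ST3GAL4 and NANP could not be ordered, with ST3GAL4 above in 3 of 6 libraries, nor could SLC35A1 and NEU3, with SLC35A1 above in 2 of 6. Among the 12896 features whose mean reached 1 FPKM, NANS stood at the 74.7th percentile of level, CMAS at the 70.6th and ST6GAL1 at the 6.64th.

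The order rests on the gene length behind each FPKM, which counts the exons of all annotated isoforms together. For NANS the deposited values imply 4931 bases, 4.21 times the 1170 bases of its principal transcript in GENCODE 29. The ratio was 3.33 for ST3GAL4, 3.68 for ST3GAL5, 2.40 for ST6GAL1 and 1.76 for ST3GAL6, and lay between 0.959 and 1.11 for the other 5. With all fragments placed on the principal transcript, an upper limit chosen after seeing the data, NANS would stand at 55.0 ± 9.31 (SD, n = 6), ST3GAL4 at 14.1 ± 1.06, above CMAS at 12.2 ± 1.70, and ST6GAL1 at 3.02 ± 0.466. ST3GAL5 would stand at 1.12 ± 0.107, and ST3GAL6 at 0.257 ± 0.0948. The ratio of FPKM between the labels does not depend on this length, since it is the same in every library. The limit of a mean of 1 FPKM and the 0.1 added before log2 do depend on it. ST3GAL5 would thus pass that limit on its principal transcript. Exons of 4 members overlap another gene in GENCODE 29, and their counts are uncertain because neither the strand nor the handling of shared bases is stated in the labels. SLC35A1 shares 1106 exonic bases with the protein-coding AL049697.1 on its own strand, NANS shares 422 with TRIM14 and NANP 110 with ZNF337-AS1 on the opposite strand, and ST3GAL6 shares 696 with 3 genes.

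Promoter sequences of 4 members are shown because NANS, CMAS and SLC35A1 moved together across the libraries while ST6GAL1 moved the other way, and because each has a single start in the RefSeq promoter table (GRCh38.p14). All 10 members matched that table, with 21 starts. Most tested features of like length moved the same way in the libraries that stand apart, as given below. A link between these sequences and the movement was not tested. Each sequence runs 5′ to 3′ on the gene's strand within the 250 bases before the start, up to the opening base that GENCODE 29 annotates as an exon, and capitals mark GGGCGG or its reverse complement, the core of the GC box bound by SP1. The regions are chr9:98056482-98056731 (plus strand) for NANS, chr12:22045968-22046173 (plus) for CMAS, chr6:87472724-87472924 (plus) for SLC35A1, within the span of its gene in GENCODE 29, and chr3:186930276-186930484 (plus) for ST6GAL1.
NANS: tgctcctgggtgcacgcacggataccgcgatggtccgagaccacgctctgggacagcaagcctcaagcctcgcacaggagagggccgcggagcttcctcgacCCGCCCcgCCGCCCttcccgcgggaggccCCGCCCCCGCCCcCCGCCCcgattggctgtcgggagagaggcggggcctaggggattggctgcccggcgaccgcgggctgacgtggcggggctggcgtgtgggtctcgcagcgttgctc
CMAS: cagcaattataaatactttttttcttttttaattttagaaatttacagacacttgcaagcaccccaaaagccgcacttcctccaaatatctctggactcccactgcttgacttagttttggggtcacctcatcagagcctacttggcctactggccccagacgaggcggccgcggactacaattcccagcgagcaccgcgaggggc
SLC35A1: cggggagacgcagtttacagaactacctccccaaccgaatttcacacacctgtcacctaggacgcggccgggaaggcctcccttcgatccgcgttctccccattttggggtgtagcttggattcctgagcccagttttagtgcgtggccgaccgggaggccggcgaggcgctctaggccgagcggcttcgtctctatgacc
ST6GAL1: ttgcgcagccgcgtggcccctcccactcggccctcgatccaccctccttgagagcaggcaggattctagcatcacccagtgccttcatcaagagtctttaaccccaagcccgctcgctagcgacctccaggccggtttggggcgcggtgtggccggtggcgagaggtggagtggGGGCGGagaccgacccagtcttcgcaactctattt
In the full 250 bases GGGCGG, searched on both strands, occurred 5 times for NANS, overlapping matches included, and 2 times each for CMAS, SLC35A1 and ST6GAL1. Of the 21 member starts 61.9% held it, against 42.6% of the 35114 starts in the table. TATAAA was found at 1 member start, that of CMAS, against 10.7% of all starts. The GC content of these 4 windows was 74.4%, 56.0%, 66.0% and 65.6%, with a median of 58% over all starts. NANP, which also has a single start and moved the same way as ST6GAL1, held GGGCGG 0 times in its 250 bases, and it is not printed because they open within an annotated exon. It was the only member without the letters at any start, as 9 of the 10 held them. A gene with more starts has more chances to hold the letters, and no such share over all genes was computed.

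The largest differences among libraries ran within the groups and divided the members. In siNC replicate 3 and siGFPT2 replicate 2, NANS, CMAS, SLC35A1 and ST3GAL4 were each above all other 4 libraries, and GNE, NANP, ST6GAL1 and NEU3 were each below all other 4. Relative to its group's other replicates, SLC35A1 was 93.6% higher in siNC replicate 3 and 30.5% higher in siGFPT2 replicate 2. NANS was 47.2% and 21.9% higher, CMAS 28.9% and 19.0%, and ST3GAL4 16.7% and 11.9%. In the opposite direction NEU3 changed by -39.2% and -29.6%, GNE by -32.3% and -33.4%, ST6GAL1 by -27.1% and -18.8%, and NANP by -17.4% and -18.8%. These percentages come from values on the log2(FPKM + 0.1) scale.

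The 4 members above had principal transcripts of 1170 to 1851 bases, and the 4 below of 3964 to 6728 bases. ST3GAL5 (4431 bases) and ST3GAL6 (3571) followed neither pattern in both libraries. The same division ran through the transcriptome: 29.8% of the 12896 tested features were above in both libraries and 35.4% were below in both. Among features with a principal transcript of up to 1851 bases, 74.9% were above and 4.19% below, and among those from 3964 bases, 5.72% were above and 72.4% below. These limits were taken from the members that followed the split, so no share of members can be set against these percentages. ST3GAL5, with 4431 bases, is also past the limit of 3964 and did not follow it. Most tested features of like length thus moved as those members did. The part of length, RNA quality or cell state in the split was not tested.

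**Figure D2:**
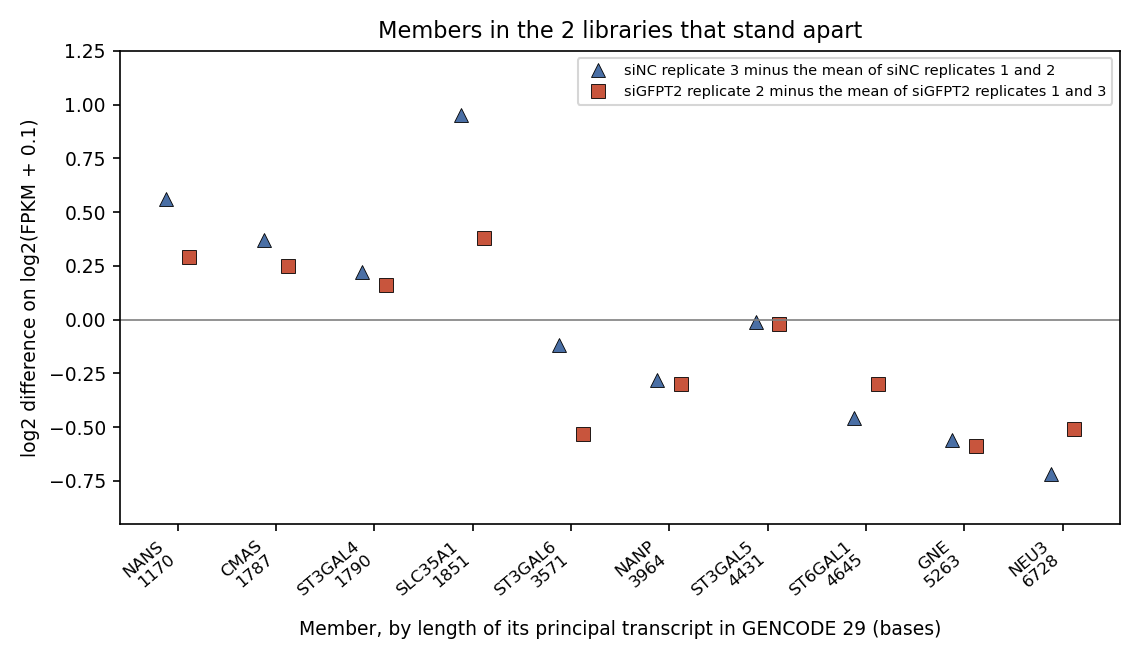
Log2 difference of siNC replicate 3 (triangles) and siGFPT2 replicate 2 (squares) from the mean of the other 2 replicates of the same group, for the 10 members ordered by the length of the principal transcript. The 4 members up to 1851 bases lie above 0 in both libraries, and GNE, NANP, ST6GAL1 and NEU3 lie below 0 in both. ST3GAL5 (-0.01 and -0.02) and ST3GAL6 (-0.12 and -0.53) also lie below 0 in both, ST3GAL5 only slightly.

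Between the labels no member passed the test. Limma on log2(FPKM + 0.1), with Benjamini-Hochberg adjustment across the 12896 features tested, called 0 of the 8 tested members, and 0% of all features (background, adjusted p under 0.05). At an unadjusted p under 0.05 there were 0 of 8 members, against 84 features or 0.651% of all. Of the 8, 7 log2 fold changes were above 0 and 1 below, as were 61.4% above 0 over all features, and the median was 0.09 for the members and 0.03 for all features. The groups did not overlap for 0 of the 8, against 2.16% of all features with siGFPT2 higher, 1.36% with siGFPT2 lower and 3.53% in either direction. A limma-voom fit on fragments recovered from the FPKM steps called 0 members and 0% of features as well, with 0.465% of features and 0 members at an unadjusted p under 0.05.

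For the synthesis enzymes the largest differences were those of CMAS and NANP. CMAS was 10.3 ± 1.65 FPKM in the siNC libraries and 11.8 ± 1.28 in the siGFPT2 libraries, with a log2 fold change of 0.19 ± 0.15 (SE; 95% interval -0.17 to 0.55; adjusted p = 0.9999). NANP was 3.84 ± 0.525 and 4.36 ± 0.519, with 0.18 ± 0.15 (-0.19 to 0.55). Both kept a positive sign in every alternative that gave a value, from 0.09 to 0.31 for CMAS and from 0.09 to 0.28 for NANP, and neither passed in any of them. GNE, the committing enzyme, was 6.0 ± 1.29 and 6.48 ± 1.43 FPKM, with 0.11 ± 0.23 (-0.44 to 0.65), and its sign turned to -0.08 without siNC replicate 3. NANS was 13.1 ± 3.12 and 13 ± 1.56, with 0.00 ± 0.19 (-0.44 to 0.44). For NANS this interval is -26.3% to 35.9% as a change, in the main fit only. With median centring the NANS interval was wider, -0.59 to 0.49 in log2.

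The carrier, the tested transferases and the sialidase differed by less than their spread. SLC35A1 was 2.92 ± 1.29 FPKM in the siNC libraries and 2.94 ± 0.488 in the siGFPT2 libraries, a log2 fold change of 0.08 with the widest interval of the 8 tested members, -0.66 to 0.82. Without siNC replicate 1 its value was -0.21, and without siNC replicate 3 it was 0.40. ST3GAL4 was 4.18 ± 0.393 and 4.31 ± 0.291 FPKM, with 0.05 (-0.25 to 0.34), the narrowest interval, or -15.8% to 26.6% in the main fit. With median centring the ST3GAL4 value was -0.01, with a wider interval of -0.37 to 0.35. ST6GAL1 was 1.21 ± 0.226 and 1.31 ± 0.191, with 0.11 (-0.38 to 0.59), and NEU3 was 2.63 ± 0.755 and 2.56 ± 0.511, with -0.02 (-0.63 to 0.60).

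Without siNC replicate 3 and siGFPT2 replicate 2, the spread of most members narrowed and still none was called. CMAS then stood at 0.23 (95% interval -0.00 to 0.46; unadjusted p = 0.0503; adjusted p = 0.72, limma). GNE was at 0.12 (-0.10 to 0.33) and NANS at 0.09 (-0.10 to 0.29), where the interval of each had been wider with all 6 libraries. NANP was at 0.19 (-0.09 to 0.46), SLC35A1 at 0.27 (-0.20 to 0.74), ST3GAL4 at 0.07 (-0.17 to 0.30), ST6GAL1 at 0.05 (-0.35 to 0.46) and NEU3 at -0.09 (-0.40 to 0.22). At an unadjusted p under 0.05 this fit had 0 of the 8 members and 5.82% of all features. Without siNC replicate 3 alone, 1 of the 8 members, CMAS, had an unadjusted p under 0.05, at 0.31 (0.00 to 0.62; unadjusted p = 0.0497; adjusted p = 0.81, limma), as did 4.03% of all features.

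ST3GAL5 was the only member whose groups were separate. With no filter on low values, its log2 fold change on the log2(FPKM + 0.1) scale was 0.19 ± 0.21 (SE; -0.32 to 0.70; adjusted p = 1.0000, limma over 36981 features, of which 0% were called and 2.04% had an unadjusted p under 0.05). The pseudocount understates a change at this level: the ratio of geometric means was 1.19. The FPKM difference of 0.0525 gave an exact two-sided permutation p of 0.1, against 0.3 or more for every other member. That is the smallest value that 3 against 3 samples allow. Groups that do not overlap always give it, so for ST3GAL5 the test only restates the separation. The SDs within the groups, 0.00458 and 0.00394 FPKM, were below the counting error, 9.35% of the level, that is, the replicates lay closer together than counting error alone would place them. Groups with siGFPT2 higher and no overlap made up 2.4% of the 36981 features. The fit on recovered fragments with no filter, chosen after seeing the data, gave 0.25 (-0.16 to 0.65; adjusted p = 0.998). ST3GAL6 was 0.131 ± 0.0319 and 0.161 ± 0.0744 FPKM, with 0.15 (-0.54 to 0.84) in the fit with no filter and a counting error of 22.5% of its level. Without the 2 libraries that stand apart and with no filter, ST3GAL5 was at 0.19 (-0.38 to 0.76) and ST3GAL6 at 0.29 (-0.62 to 1.19).

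**Figure D3:**
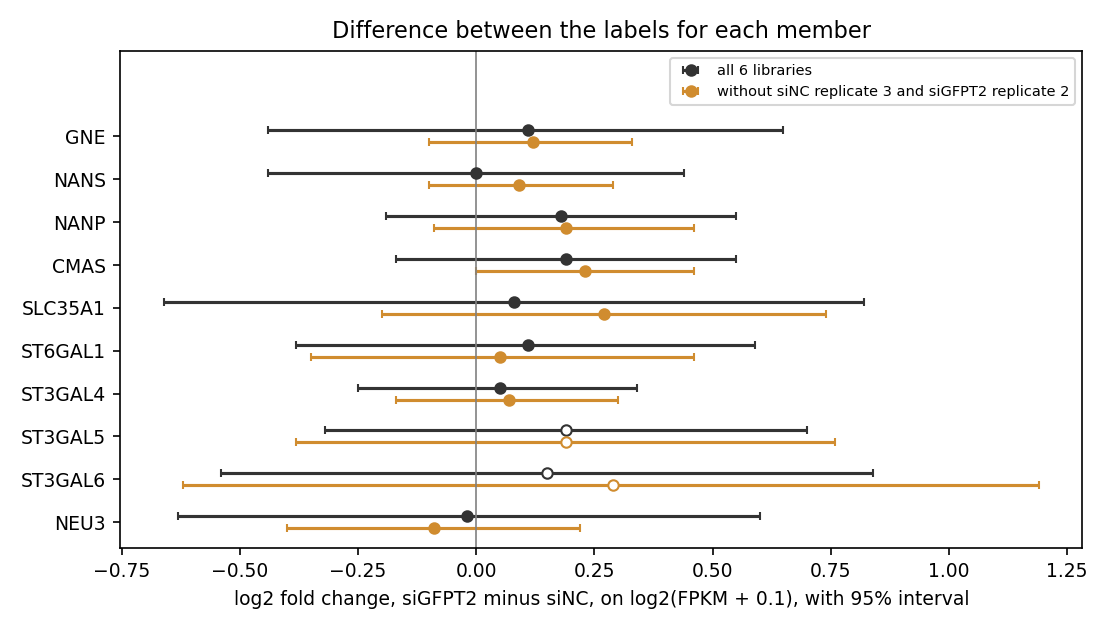
Log2 fold change of siGFPT2 over siNC with its 95% interval for the 10 members, from limma with all 6 libraries (black) and without the 2 libraries that stand apart (orange); open symbols are the 2 members below 1 FPKM, fitted with no filter. The intervals with all 6 libraries cross 0 for all 10 members, and those of GNE, NANS and NEU3 are narrower without the 2 libraries.

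Ratios of members within a library, which cancel any scaling between libraries, overlapped between the labels for all 4 ratios computed. Exact two-sided permutation p-values were 0.4 to 0.8, with adjusted values of 0.8 for each; 3 against 3 libraries cannot give less than 0.1, so this test could not have passed 0.05. The log2 ratio of ST6GAL1 to the sum of ST3GAL4 and ST3GAL6 was -1.84 ± 0.41 in the siNC libraries and -1.78 ± 0.28 in the siGFPT2 libraries (SD, n = 3 each). That of ST3GAL5 to NEU3, making against trimming of gangliosides, was -3.20 ± 0.43 and -2.93 ± 0.29. CMAS over SLC35A1 was 1.90 ± 0.41 and 2.01 ± 0.09, and NANS over GNE 1.13 ± 0.65 and 1.02 ± 0.51. Without the 2 libraries that stand apart the differences in log2 ratio, siGFPT2 minus siNC, were -0.03 for ST6GAL1 over ST3GAL4 and ST3GAL6, 0.34 for ST3GAL5 over NEU3, -0.05 for CMAS over SLC35A1 and -0.02 for NANS over GNE. NANS over GNE was 1.67, 1.70, 1.62 and 1.69 on the linear scale in the 4 libraries that cluster together, and 3.69 in siNC replicate 3 and 3.05 in siGFPT2 replicate 2. The high values of this ratio thus came from 1 library of each label.

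In the rest of the sialyltransferase family 4 of 16 genes reached a mean of 1 FPKM. ST6GALNAC4, which adds sialic acid to O-glycans and glycolipids, was the most abundant sialyltransferase at 13.5 ± 1.52 FPKM in the siNC libraries and 12.9 ± 0.521 in the siGFPT2 libraries (log2 -0.06, -0.34 to 0.23). ST3GAL1, which caps the core of mucin-type glycans, was 4.05 ± 0.885 and 4.28 ± 0.628 (0.09, -0.39 to 0.57), near the level of ST3GAL4. None of the 4 was called, with 3 above 0, 1 below and a median of 0.03. Below that mean, ST6GAL2 was the only 1 of the 16 whose groups did not overlap. It was 0.0658 ± 0.0133 FPKM in the siNC libraries and 0.103 ± 0.013 in the siGFPT2 libraries, from 9 to 21 fragments. With no filter, 2.4% of all features were likewise separate with siGFPT2 higher. The polysialyltransferase ST8SIA2 had 0 to 2 fragments per library. ST8SIA1, which turns GM3 into GD3, was at 0.203 ± 0.017 FPKM over the 6 libraries, and B4GALNT1, which extends GM3 to other gangliosides, at 2.61 ± 0.454.

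**Figure D4:**
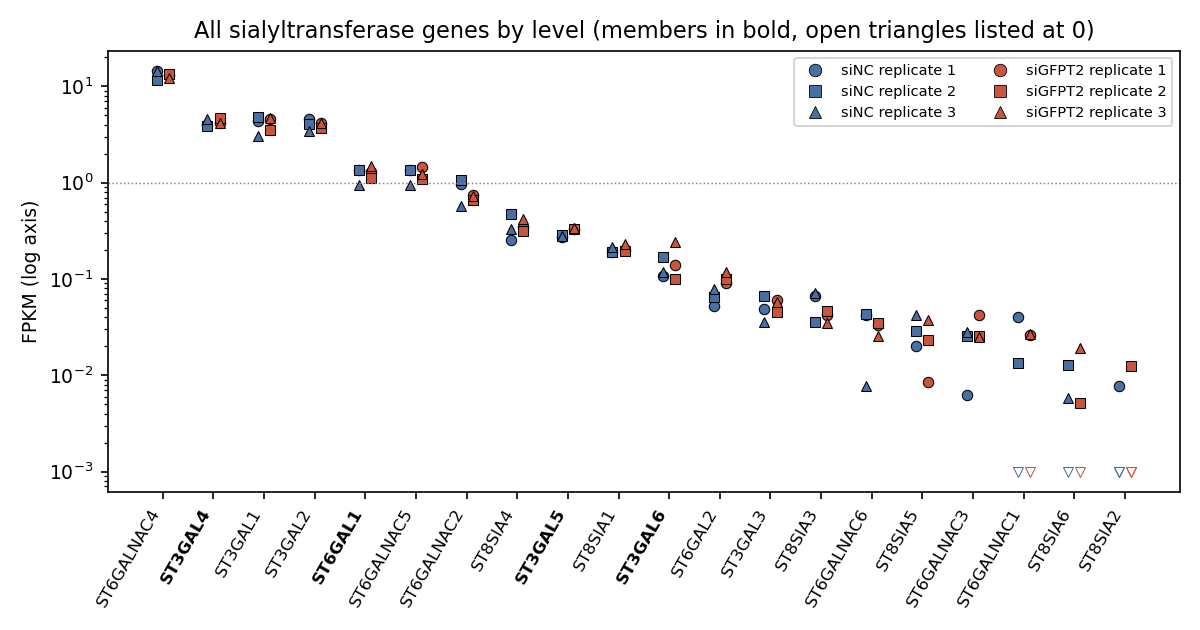
FPKM of all 20 sialyltransferase genes in each library on a log axis, ordered by mean level, with the members in bold and libraries listed at 0 drawn as open triangles at the bottom. ST6GALNAC4 lies highest, ST3GAL4 is next, and ST3GAL5 and ST3GAL6 lie between 0.0993 and 0.334 FPKM.

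Genes around the pathway gave 0 calls in every list. In UDP-GlcNAc supply, 5 of 8 genes were above 0 and 3 below, with a median of 0.09, 0.25 (-0.09 to 0.59) for GNPNAT1 and 0.23 (-0.12 to 0.58) for PGM3, and the highest level in UAP1 at 15.5 FPKM. CTP supply had 3 above and 1 below of 4 tested, with 0.14 for CMPK1, also its most abundant gene, and 0.08 for CTPS2. Of the sialidases and breakdown genes, 1 of 3 tested was above 0. CTSA, the protective protein of the lysosomal sialidase NEU1, was 68.7 ± 4.48 and 64.8 ± 4.22 FPKM (-0.08, -0.34 to 0.17), the lysosomal exporter SLC17A5 had 0.15, and NEU1 itself, at 15.9 ± 1.32 FPKM over the 6 libraries, was above NEU3. Both O-acetylation genes were above 0, with 0.22 (-0.23 to 0.66) for the acetyltransferase CASD1 and 0.15 for the esterase SIAE.

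The acceptor genes were well expressed. Of 8 genes for galactosyltransferases and glycolipid cores, 6 were above 0 and 2 below (median 0.06), with 0.13 for UGCG, -0.07 for B4GALT2 and the highest level in B4GALT1 at 35.6 FPKM. Of the 7 fucosyltransferases listed only FUT3 and FUT11 reached the mean of 1 FPKM, with -0.02 and -0.05, and FUT3 was the most abundant at 3.84 FPKM. The other Golgi carriers had 2 above and 3 below of 5 tested, with 0.22 (-0.44 to 0.89) for SLC35D1 and -0.04 for SLC35C1. Their most abundant gene, the UDP-galactose carrier SLC35A2, was at 19.4 FPKM, against 2.93 for SLC35A1.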

How the data were processed

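Bulk mRNA sequencing libraries from NCI-H1975 cells (3 siNC, 3 siGFPT2) were analysed from the table of FPKM per gene that the authors deposited. The submitters' processing notes name HISAT2, featureCounts and DESeq2 without versions; build and annotation: not given in the sources used here. Symbols were found for 60463 of 60605 Ensembl identifiers, and positions, transcripts and exon overlaps come from GENCODE 29. Columns were tied to samples by name.

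Depth and fragments were recovered from the FPKM steps (36978 of 36981 features above 0 came out whole in every library within 0.0001 fragments; with the length of each gene read from the same steps). Differences were tested with limma 3.58.1 in R 4.3.3 (lmFit, eBayes with a trend, two-sided) on log2(FPKM + 0.1), which understates the change of low genes, for features whose mean over the libraries reached 1 FPKM, with Benjamini-Hochberg adjustment at 0.05 and group as the only term. Ratios were tested with exact permutation (scipy 1.17.1), as were the levels of the members, which was not planned. Counting errors cover counting only. All 10 members were named whatever their values, with GFPT2, and of each context list the 2 tested genes with the smallest p and the most abundant gene. NEU1, ST6GAL2, ST8SIA1, ST8SIA2, B4GALNT1 and the markers COL1A1 and PTPRC were added after their values were seen. The summed level of the leukocyte list is not reported here. Members, lists and tests were chosen with earlier results of these data known. Alternatives were other pseudocounts, filters and scalings, removal of the length trend, a replicate block, limma-voom and left-out libraries. Limma-voom with no filter, the fit with neither filter nor the libraries that stand apart, and levels per principal transcript were chosen after seeing the data.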

Additional observations from a re-analysis of the deposited data

How the results depend on the processing

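The counts of called features and of called members were 0 under all 18 alternatives. Of 143 member fold changes under alternatives, 127 kept direction and 16 turned sign, 0 of them called in any fit; the cause was not tested. With median centring NANS was -0.05 and ST3GAL4 -0.01, with quantile normalization -0.01 and -0.00035, and with the length trend removed NANS was -0.04. With 1 library left out, GNE ran from -0.08 to 0.30, NANS from -0.11 to 0.19, SLC35A1 from -0.21 to 0.40, ST6GAL1 from -0.05 to 0.21, ST3GAL4 from -0.01 to 0.12 and NEU3 from -0.26 to 0.16. Single values that turned were GNE at -0.08 and ST6GAL1 at -0.05 without siNC replicate 3; NANS at -0.08, SLC35A1 at -0.21 and NEU3 at 0.05 without siNC replicate 1; NANS at -0.11 and NEU3 at 0.16 without siNC replicate 2; and NANS at -0.09, SLC35A1 at -0.05, ST3GAL4 at -0.01 and NEU3 at 0.15 without siGFPT2 replicate 2.

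Of 32 ratio values 8 turned. With 1 library left out, the ST6GAL1 ratio ran from -0.18 to 0.21, CMAS over SLC35A1 from -0.10 to 0.31, NANS over GNE from -0.40 to 0.27 and ST3GAL5 over NEU3 from 0.10 to 0.51. Without both libraries that stand apart the ST6GAL1 ratio was -0.03 and CMAS over SLC35A1 -0.05. Deviations of same-numbered libraries from their group means correlated at 0.47, -0.72 and -0.57, and siNC replicate 3 correlated best with siGFPT2 replicate 2 (0.79). The libraries that stand apart weigh on all these values, so a weaker pairing by number cannot be judged from them. With the replicate block 0 features were called, 63 had an unadjusted p under 0.05 against 84, and the member fold changes were the same. At an unadjusted p under 0.05 there were 754 features with no filter, 16 with a minimum of 5 FPKM, 161 without siNC replicate 2, 520 without siNC replicate 3, 54 without siGFPT2 replicate 1, 50 without siGFPT2 replicate 3, 751 without both libraries that stand apart, 1943 without these and with no filter, and 772 in limma-voom with no filter. The fragments of ST3GAL6 (15 to 34 per library) limit what could be detected for it.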
